A study of Homo sapiens with 8 samples.

Results

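The expression of 9 genes of insulin and insulin-like growth factor (IGF) signalling was followed in 2 HER2-positive breast cancer cell lines treated with a HER2 inhibitor, a BET bromodomain inhibitor or both. The genes were the receptors INSR, IGF1R and IGF2R, the ligands IGF1 and IGF2, and the proteins IRS1, IRS2, GRB10 and GRB14, which bind the activated receptors inside the cell. They were taken by gene symbol, and all 9 were among the 20531 genes listed. Poly(A) RNA was sequenced from SKBR-3 cells, which the study classes as negative for the estrogen and progesterone receptors, and from BT474m1 cells, which it classes as positive for both. Each line was treated for 48 h with DMSO (the vehicle), with 300 nM lapatinib (which blocks the kinase activity of EGFR and HER2), with 300 nM JQ1 (an inhibitor of the BET proteins, which bind acetylated chromatin), or with 300 nM of each drug together. All cultures were kept in RPMI medium with serum, and serum itself carries insulin-like growth factors that a measurement of cellular RNA does not see. Each of the 8 groups held 1 library, so no difference could be set against a spread between cultures and no p-value is given.

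Insulin and the IGFs act through a pair of related receptor tyrosine kinases, INSR and IGF1R, which can also join into hybrid receptors. The activated receptors phosphorylate the docking proteins IRS1 and IRS2, which recruit PI3K and so switch on AKT. AKT in turn holds the FOXO transcription factors in the cytoplasm, and INSR and IRS2 are textbook FOXO targets, so that the pathway feeds back on its own receptors. IGF2R carries no kinase and removes IGF2 from the cell surface to the lysosome, and GRB10 and GRB14 are adaptors that inhibit INSR and IGF1R. In breast cancer cells, signalling through IGF1R and the IRS proteins is a known partner of HER2 signalling, and IRS1 and IGF1R are known to be raised by estrogen.

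The values were RSEM estimates of reads per gene, which the authors had scaled so that each library has its upper quartile at 1000. Between 21420113 and 34112379 reads lay on genes, and 1 read was worth 0.472 to 0.766 units. Square brackets hold 95% Clopper-Pearson intervals from the recovered reads, which cover counting error only, and a count of 0 allows up to 3 reads, or 1.41 to 2.30 units. Changes are differences of log2(value + 1), and a change is called when it is 2-fold or more. The intervals are those of the log2 ratio of values without the added 1. For genes of few reads they therefore do not bracket the same quantity as the change printed beside them. Of all genes, 14429 were kept because 1 or more of the 8 libraries gave them a value of at least 10. All 9 genes were kept, but IGF1, IGF2 and GRB14 passed only through the libraries where they stood highest, so that a difference between their libraries was part of passing. The luminal markers EPCAM, KRT8, KRT18 and KRT19 and the HER2 amplicon genes ERBB2 and GRB7 were high in all libraries, whereas CDH1, the luminal cadherin, was at 15.1 or lower in SKBR-3. In RNA from whole cultures, fewer cells of one kind and less RNA per cell cannot be told apart.

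The promoters of 6 of the genes are shown because the members separated by drug: INSR, IGF1R, IRS1 and IRS2 were the receptors and docking proteins that lapatinib raised in 1 or both lines, IGF2R stood higher with JQ1 in both, and IGF1 had most of its few reads with lapatinib. Each sequence is the 250 bases before a RefSeq transcription start on GRCh38.p14, written 5′ to 3′ on the strand of the gene. Capitals mark matches on either strand to the FOX motif of the study (GTAAACA or GTCAACA), to its core AAACA, to the E-box CACGTG and to the GC box GGGCGG. A match to GTAAACA also holds a match to the core, and neighbouring GC boxes can overlap.
INSR, chr19:7294415-7294664, minus strand: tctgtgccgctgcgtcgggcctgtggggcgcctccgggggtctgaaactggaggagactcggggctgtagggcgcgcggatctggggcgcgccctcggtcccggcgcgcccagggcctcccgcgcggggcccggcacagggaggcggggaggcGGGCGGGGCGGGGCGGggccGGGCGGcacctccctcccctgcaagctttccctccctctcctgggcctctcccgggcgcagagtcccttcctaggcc
IGF1R, chr15:98648289-98648538, plus strand: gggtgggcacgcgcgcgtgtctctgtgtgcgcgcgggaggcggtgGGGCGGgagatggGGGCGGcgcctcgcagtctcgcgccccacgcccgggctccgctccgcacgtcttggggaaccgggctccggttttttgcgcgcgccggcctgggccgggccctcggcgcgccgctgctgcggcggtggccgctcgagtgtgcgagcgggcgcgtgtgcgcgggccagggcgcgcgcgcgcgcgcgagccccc
IRS1, chr2:226799821-226800070, minus strand: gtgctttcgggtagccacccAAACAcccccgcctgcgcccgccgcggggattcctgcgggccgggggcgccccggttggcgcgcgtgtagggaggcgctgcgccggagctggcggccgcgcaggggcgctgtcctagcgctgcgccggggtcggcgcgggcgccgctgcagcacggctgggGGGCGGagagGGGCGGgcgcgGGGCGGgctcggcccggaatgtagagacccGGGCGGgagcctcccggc
IRS2, chr13:109786584-109786833, minus strand: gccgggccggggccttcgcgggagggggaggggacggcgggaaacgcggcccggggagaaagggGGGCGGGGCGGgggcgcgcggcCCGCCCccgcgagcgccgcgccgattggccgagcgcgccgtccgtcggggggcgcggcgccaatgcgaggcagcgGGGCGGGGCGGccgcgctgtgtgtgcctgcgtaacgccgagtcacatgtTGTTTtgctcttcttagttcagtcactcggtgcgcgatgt
IGF2R, chr6:159968832-159969081, plus strand: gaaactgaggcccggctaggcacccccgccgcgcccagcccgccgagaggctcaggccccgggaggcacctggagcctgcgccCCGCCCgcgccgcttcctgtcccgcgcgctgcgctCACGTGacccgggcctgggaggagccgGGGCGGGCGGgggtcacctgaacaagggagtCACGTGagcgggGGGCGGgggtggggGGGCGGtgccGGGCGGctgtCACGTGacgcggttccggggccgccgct
IGF1, chr12:102481748-102481997, minus strand: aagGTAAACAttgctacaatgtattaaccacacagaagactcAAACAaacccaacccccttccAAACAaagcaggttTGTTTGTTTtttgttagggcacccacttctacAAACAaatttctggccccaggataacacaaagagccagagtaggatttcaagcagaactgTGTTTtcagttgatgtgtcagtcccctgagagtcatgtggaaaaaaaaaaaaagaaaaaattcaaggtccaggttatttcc

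Windows were found for 8 of the 9 genes, and IGF2 had none. The GC box was the common feature: INSR held 4, IGF1R 2, IRS1 4, IRS2 5, IGF2R 6, and the first windows of GRB10 and GRB14 3 each, while IGF1 held 0. Of all 35116 promoter windows of this length, 42.6% held at least 1 GC box and 2.22% at least 6. The full FOX motif, which 4.84% of all windows held, had no match in the windows of INSR, IGF1R, IRS1 or IRS2, and the core AAACA (40.4% of all windows) had 1 match in IRS1 and 1 in IRS2. The first of 2 windows of IGF1, the one printed above, held 1 FOX motif and 7 cores, and the second held 0 and 2, where 0.159% of all windows held at least 6 cores. Of the further windows of GRB10 and GRB14, the second of GRB14 held 1 FOX motif and 3 cores, and 1 of GRB10 held 2 cores. IGF2R held 3 E-boxes, at positions -132, -74 and -28 from the start, and 0.0797% of all windows held at least 3. These are matches of letters in a short window and say nothing of whether a factor binds there or elsewhere near the gene.

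**Figure D1:**
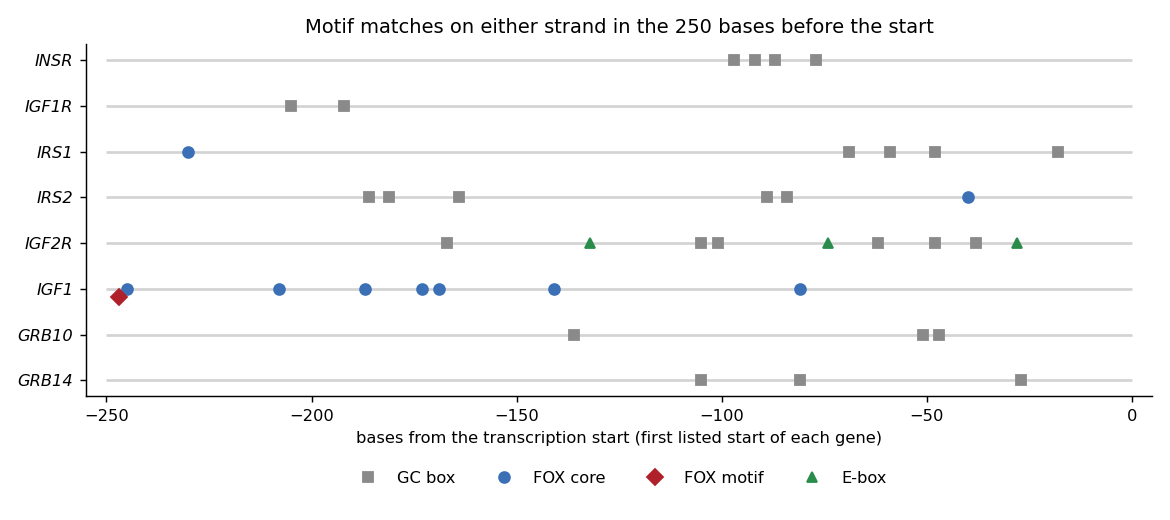
Positions of motif matches in the 250 bases before the first listed transcription start of 8 genes; the x axis gives bases from the start, and symbols mark the first base of a match on either strand. A FOX motif and 7 FOX cores lie in IGF1 and the 3 E-boxes in IGF2R, while the other genes hold mainly GC boxes.

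Levels were compared between genes per kilobase of the reference transcript (GENCODE 44), on the scaled values. In SKBR-3 with DMSO the order was IGF2R at 292.5 per kilobase, IGF1R at 30.1, INSR at 21.0, IRS1 at 17.1, GRB10 at 13.6, GRB14 at 4.74, IRS2 at 0.878, IGF1 at 0.394 and IGF2 at 0.385. Of the 8 neighbouring pairs in this order, the intervals of 3 did not separate the neighbours: IRS1 and GRB10, IRS2 and IGF1, and IGF1 and IGF2. In BT474m1 with DMSO GRB10 led at 322.5 per kilobase, followed by IGF2R at 192.7, INSR at 38.7, IGF1R at 36.5, IRS1 at 18.6, IRS2 at 16.2, GRB14 at 1.76, IGF2 at 1.18 and IGF1 at 0.0648. Here INSR and IGF1R, IRS1 and IRS2, and GRB14 and IGF2 were not separated.

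The order moved with treatment. In SKBR-3, INSR stood above IGF1R with lapatinib, at 77.8 against 57.5 per kilobase (ratio 1.35, interval [1.24, 1.48]), and with both drugs, at 154.5 against 80.1 (ratio 1.93, interval [1.80, 2.06]), the reverse of the order with DMSO. In BT474m1 with lapatinib it was IGF1R that led the kinases, at 174.9 per kilobase against 88.2 for INSR. With both drugs in BT474m1, IRS2 at 103.2 per kilobase was the leading gene after GRB10 and IGF2R.

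**Figure D2:**
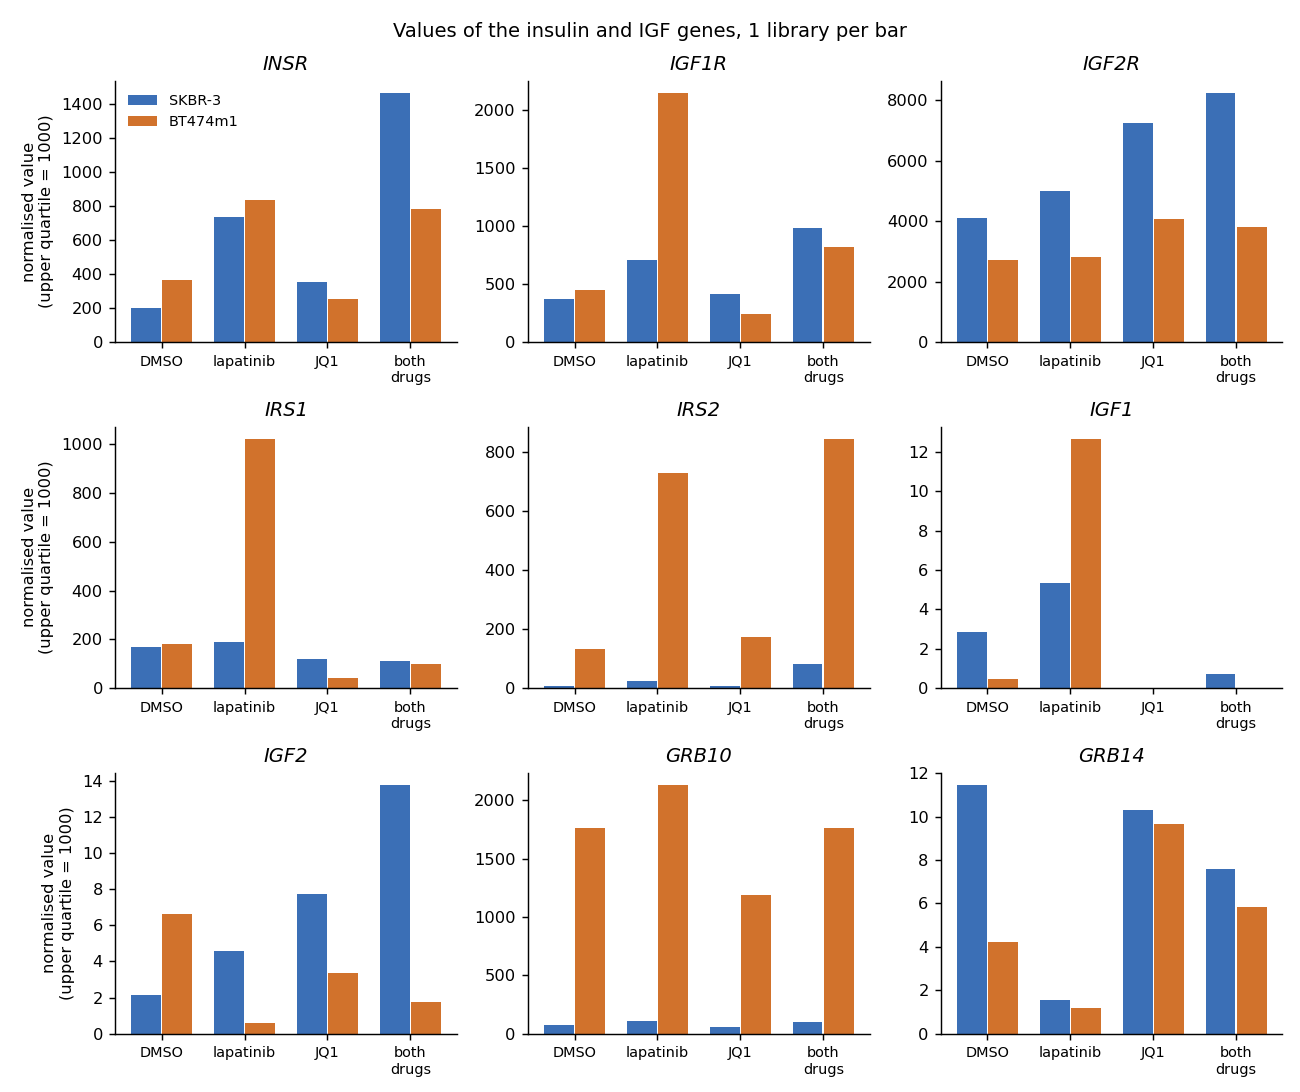
Scaled value of each of the 9 genes (y axis, linear from 0, own scale in each panel) in the 8 libraries, by treatment (x axis) and line (colour), 1 library per bar. INSR is highest with both drugs in SKBR-3 at 1462, IGF1R and IRS1 with lapatinib in BT474m1 at 2139.8 and 1021, and GRB10 is high in every BT474m1 library.

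The lines differed before treatment mainly in GRB10 and IRS2. GRB10 (Entrez 2887; chromosome 7, 50590068 to 50793453 on GRCh38.p14), the inhibitory adaptor, stood at 74.4 in SKBR-3 with DMSO and at 1763 in BT474m1, a log2 difference of 4.55 [4.28, 4.86]. IRS2 (Entrez 8660; chromosome 13, 109752695 to 109786583) stood at 7.16 and 132, a difference of 4.03 [3.30, 5.28]. Its SKBR-3 value rested on 10 reads, and with a pseudocount of 10 the difference was 3.05. Of the 9 genes, 3 were at least 2-fold higher in BT474m1 (IRS2, IGF2 and GRB10), against 26.8% of all genes kept, and 2 were at least 2-fold lower (IGF1 and GRB14), against 15.6%. INSR was higher in BT474m1 by 0.88 [0.68, 1.08], IGF1R by 0.28 [0.12, 0.44] and IRS1 by 0.13 [-0.11, 0.37], and IGF2R differed by -0.60 [-0.66, -0.55]. The difference of IGF2 rested on 3 and 14 reads and that of IGF1 on 4 reads and 1 read, and both intervals included no difference.

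The first question was how the receptors and docking proteins responded to inhibition of HER2. INSR (Entrez 3643; chromosome 19, 7112265 to 7294414), the insulin receptor, read 199, 737, 351 and 1462 in the SKBR-3 libraries treated with DMSO, lapatinib, JQ1 and both drugs. The BT474m1 libraries, in the same order, gave 366, 834, 253 and 785. INSR was thus high in both lines wherever lapatinib was present. The lapatinib response was a rise of 1.88 [1.69, 2.09], or 3.69-fold, for SKBR-3 and of 1.19 [1.06, 1.32] for BT474m1. In SKBR-3, 2.74% of the genes kept rose at least as much with lapatinib as INSR, and in BT474m1 11% did. With both drugs the change from DMSO was 2.87 [2.70, 3.06] in SKBR-3, a size that 0.624% of the genes kept reached, and 1.10 [0.97, 1.23] in BT474m1, which 12.7% reached. Both drugs against lapatinib gave 0.99 [0.88, 1.10] for INSR in SKBR-3 and -0.09 [-0.20, 0.02] in BT474m1.

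IGF1R (Entrez 3480; chromosome 15, 98648539 to 98964530), the receptor for both IGFs, read 368, 703, 416 and 980.2 in SKBR-3 with DMSO, lapatinib, JQ1 and both drugs. In BT474m1 it read 446, 2139.8, 243 and 817. In SKBR-3 the highest value was with both drugs, and in BT474m1 it was with lapatinib alone. The lapatinib change was 0.93 [0.78, 1.09] in SKBR-3, just short of 2-fold, and 2.26 [2.16, 2.37] in BT474m1. Both drugs against lapatinib gave a change of -1.39 [-1.48, -1.30] for IGF1R in BT474m1, whereas in SKBR-3 the library with both drugs was higher than that with lapatinib by 0.48 [0.36, 0.60]. Even so, IGF1R with both drugs in BT474m1 remained above DMSO by 0.87 [0.75, 0.99].

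IRS1 (Entrez 3667; chromosome 2, 226731312 to 226799820), the docking protein best known from IGF1R signalling in breast cells, responded to lapatinib in BT474m1. In SKBR-3 its values with DMSO, lapatinib, JQ1 and both drugs were 167, 188, 119 and 112. In BT474m1 they were 182, 1021, 41.5 and 99.1. The SKBR-3 lapatinib change of IRS1 was 0.17 [-0.10, 0.43], not detectable at this depth, while in BT474m1 lapatinib raised it by 2.48 [2.33, 2.65], which 2.30% of the genes kept matched. Its JQ1 change in BT474m1 was -2.10 [-2.49, -1.79]. With both drugs it was 10.2-fold lower than with lapatinib there, a log2 change of -3.35 [-3.60, -3.14], and below DMSO by -0.87 [-1.15, -0.61]. In SKBR-3 both drugs against lapatinib gave -0.74 [-1.04, -0.45], which is the same direction but short of 2-fold.

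IRS2, the second docking protein and the one tied most to FOXO, kept the lapatinib response when JQ1 was added. In the order DMSO, lapatinib, JQ1 and both drugs, its SKBR-3 values were 7.16, 24.5, 5.80 and 80.5, all low. In BT474m1 they were 132, 726, 173 and 841. Lapatinib raised IRS2 in SKBR-3 by 1.64 [0.72, 2.96], and BT474m1 showed a rise of 2.45 [2.27, 2.65]. The combination exceeded DMSO by 3.32 [2.56, 4.59] and 2.66 [2.49, 2.86], and 0.353% of the genes kept in SKBR-3 and 2.29% in BT474m1 rose as much. Against lapatinib alone, the library with both drugs was higher in SKBR-3 by 1.68 [1.14, 2.33], and the BT474m1 difference was 0.21 [0.10, 0.32]. With a pseudocount of 10 the SKBR-3 change with both drugs was 2.40, and its DMSO value rested on 10 reads.

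In BT474m1 markers of the hormone receptors moved with IRS1 over the treatments, and with IGF1R except under the combination. ESR1, the estrogen receptor, read 840.2, 1827, 189.9 and 249 there with DMSO, lapatinib, JQ1 and both drugs, and PGR, an estrogen receptor target, read 858, 12466, 251 and 290.3. Both markers, 2 of 2 on that list, were thus highest with lapatinib and lowest with JQ1, as IRS1 was. With both drugs they lay below DMSO, as IRS1 did, whereas IGF1R at 817 lay above its DMSO value of 446. Their summed level ran from 441 to 14293 in BT474m1 and from 2.58 to 19.9 in SKBR-3, where PGR was at 3.06 or lower. The part of the hormone receptors in the changes of IRS1 and IGF1R was not tested.

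**Figure D3:**
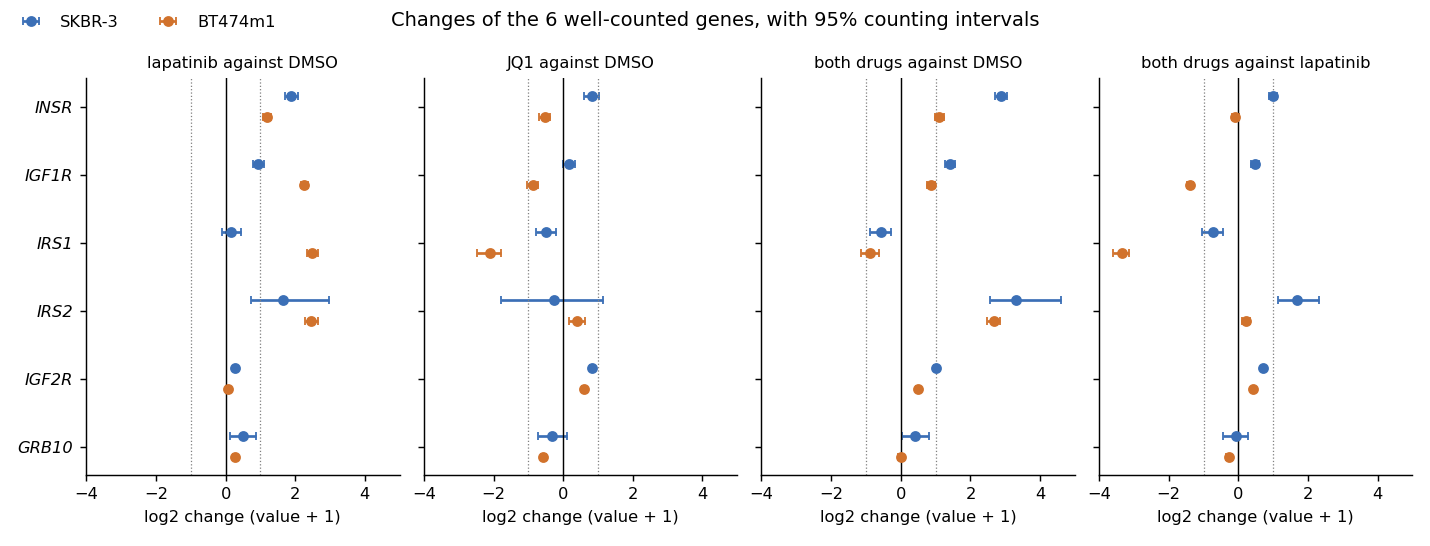
Log2 change (x axis, value + 1) of 6 genes with more than a few reads, in 4 comparisons and 2 lines (colour); bars are 95% counting intervals from 1 library against 1, and dotted lines mark 2-fold. In both drugs against lapatinib, IRS1, IGF1R, INSR and IRS2 lie at -3.35, -1.39, -0.09 and 0.21 in BT474m1 and at -0.74, 0.48, 0.99 and 1.68 in SKBR-3.

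The second question was how the genes responded to BET inhibition alone. IGF2R (Entrez 3482; chromosome 6, 159969082 to 160111504), the scavenger receptor for IGF2, read 4112, 5008, 7258 and 8228 in SKBR-3 with DMSO, lapatinib, JQ1 and both drugs. In BT474m1 it read 2709, 2833, 4085 and 3825. The libraries with JQ1 were the higher ones in both lines. Its JQ1 change was 0.82 [0.77, 0.87] in SKBR-3 and 0.59 [0.54, 0.64] in BT474m1, both short of 2-fold, while 5.16% and 11.8% of the genes kept rose at least as much. With lapatinib the change was 0.28 [0.23, 0.34] and 0.06 [0.01, 0.12]. With both drugs IGF2R reached 1.0 [0.96, 1.05] in SKBR-3, on the edge of the 2-fold call, 0.91 once libraries were scaled to equal totals and 1.14 by the median of ratios.

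INSR, and by a small margin IGF1R, stood above DMSO with JQ1 in SKBR-3 and below it in BT474m1. The INSR change was 0.82 [0.61, 1.03] in SKBR-3 and -0.53 [-0.69, -0.37] in BT474m1, and that of IGF1R was 0.18 [0.01, 0.35] and -0.88 [-1.04, -0.72]. Scaled to equal totals, the SKBR-3 change of IGF1R was 0.03. None of these reached 2-fold, and the difference between the lines was not tested. The JQ1 change of IRS2 was -0.26 [-1.78, 1.15] in SKBR-3, which was not detectable at this depth, and 0.39 [0.16, 0.62] in BT474m1.

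The ligands lay near the floor. IGF1 (Entrez 3479; chromosome 12, 102395874 to 102481839), the ligand of IGF1R, had 4, 7, 0 and 1 reads in SKBR-3 with DMSO, lapatinib, JQ1 and both drugs, and 1, 21, 0 and 0 reads in BT474m1. Its highest scaled value was 12.7, with lapatinib in BT474m1. There the change against DMSO was 3.21 [2.11, 10.1], which rests on the 1 read with DMSO, and with a pseudocount of 10 it was 1.11. Only that lapatinib library took IGF1 past the filter, so that its differences from the other BT474m1 libraries were part of passing. For both drugs against lapatinib in BT474m1, 0 against 21 reads, the counting interval of the log2 change ended at -2.43, below no change. For JQ1 against DMSO in SKBR-3, 0 against 4 reads, it ended at 0.45, so that no difference was detectable. The liver markers, circulating IGF1 being made in the liver, were ALB, at 1.41, 16.9, 0.483 and 28.6 in BT474m1 with DMSO, lapatinib, JQ1 and both drugs and at 0 in SKBR-3, and APOA1, at 0.716 or lower in all libraries. Their part in the IGF1 values was not tested.

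IGF2 (Entrez 3481; chromosome 11, 2129117 to 2149566), which binds INSR, IGF1R and IGF2R, had 3, 6, 12 and 20 reads in SKBR-3 and 14, 1, 7 and 3 reads in BT474m1 in the same order. The values ran upward from DMSO to both drugs in SKBR-3, to 13.8, whereas in BT474m1 the DMSO library was the highest, at 6.60. Lapatinib gave -2.25 [-8.86, -0.74] in BT474m1, resting on the 1 read with lapatinib, and 0.83 [-1.13, 3.72] in SKBR-3. A pseudocount of 10 brought the BT474m1 change to -0.65, short of 2-fold. With both drugs the change was 2.23 [0.93, 5.07] in SKBR-3 and -1.47 [-4.36, -0.07] in BT474m1. Only the SKBR-3 library with both drugs took IGF2 past the filter, so that the SKBR-3 rise was part of passing. IGF2 shares its locus with INS-IGF2, INS and the antisense IGF2AS. INS and INS-IGF2 had 0 reads in all 8 libraries and IGF2AS 1 read in 1 library, and because the labels disagree on the library kit, reads from opposite strands may not have been told apart.

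Of the inhibitory adaptors, GRB10 differed more by line than by drug. It read 74.4, 106, 59.9 and 99.7 in SKBR-3 with DMSO, lapatinib, JQ1 and both drugs, and 1763, 2129, 1184 and 1758 in BT474m1. The lines did not overlap, and within a line the libraries with JQ1 alone were lowest and those with lapatinib highest. The lapatinib change was 0.50 [0.13, 0.89] and 0.27 [0.21, 0.34], and the JQ1 change was -0.31 [-0.73, 0.10] and -0.57 [-0.65, -0.50]. GRB14 (Entrez 2888; chromosome 2, 164492417 to 164621482) had 16, 2, 16 and 11 reads in SKBR-3 and 9, 2, 20 and 10 in BT474m1, lowest with lapatinib alone in each line. Its lapatinib change was -2.30 [-6.07, -0.81] in SKBR-3 and -1.25 [-5.07, 0.46] in BT474m1, both against 2 reads. GRB14 was kept only through the SKBR-3 libraries with DMSO and JQ1, so that its SKBR-3 fall was part of passing the filter.

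Over the 9 genes, 2 rose at least 2-fold with lapatinib in SKBR-3 (INSR and IRS2), against 11.1% of all genes kept, and 1 fell (GRB14), against 9.44%. GRB14 was kept only through the SKBR-3 libraries with DMSO and JQ1, so that this fall was part of passing the filter. In BT474m1 5 rose (INSR, IGF1R, IRS1, IRS2 and IGF1), against 14.0%, and 2 fell (IGF2 and GRB14), against 8.06%. IGF1 was kept only through the BT474m1 library with lapatinib, so that its rise was part of passing. The falls rested on 1 against 14 reads for IGF2 and on 2 against 9 for GRB14, whose interval included no change. The median change of the 9 was 0.72 and 1.19 in the lines, and that of all genes kept 0.05 and 0.07. The SKBR-3 median fell on IGF1, at 7 against 4 reads with an interval that included no change, and the BT474m1 median on INSR. With JQ1, 1 rose in SKBR-3 (IGF2), against 3.75%, and 1 fell (IGF1), against 11.8%, while in BT474m1 1 rose (GRB14), against 4.81%, and 1 fell (IRS1), against 11.8%. The intervals of IGF2, IGF1 and GRB14 in these JQ1 changes included no change. The JQ1 medians of the 9 were -0.14 and -0.56, those of all genes kept -0.08 and -0.06. They fell on GRB14 in SKBR-3, at 16 against 16 reads, and on IGF1 in BT474m1, at 0 against 1 read. Such medians describe no shift of the 9 genes as a set.

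With both drugs against DMSO, 5 of the 9 rose in SKBR-3 (INSR, IGF1R, IGF2R, IRS2 and IGF2), against 10.8%, and 1 fell (IGF1, with an interval that included no change), against 20.8%. IGF2 was kept only through the SKBR-3 library with both drugs, so that its rise there was part of passing the filter. In BT474m1 2 rose (INSR and IRS2), against 14.2%, and 1 fell (IGF2), against 15.3%. Against lapatinib alone, both drugs gave 3 higher in SKBR-3 (IRS2, IGF2 and GRB14), against 3.22%, and 1 lower (IGF1), against 16.2%. Here too the rise of IGF2 was part of passing, GRB14 rested on 11 against 2 reads and IGF1 on 1 against 7. In BT474m1 1 was higher (GRB14), against 5.20%, and 3 were lower (IGF1R, IRS1 and IGF1), against 12.5%. GRB14 rested on 10 against 2 reads, and IGF1 was kept only through the BT474m1 library with lapatinib, so that its fall was part of passing. Against JQ1 alone, both drugs gave 3 higher in SKBR-3 (INSR, IGF1R and IRS2), against 9.79%, and 0 lower, against 12.3%. In BT474m1 4 were higher (the same 3 and IRS1), against 12.4%, and 0 were lower, against 7.27%. The comparisons with DMSO share the DMSO library, and those with both drugs share that library, so they are not independent of each other.

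The change with both drugs was set beside the sum of the changes with each drug, as a description in which every term shares the DMSO library. INSR in SKBR-3 reached 2.87 where the sum was 2.70, and in BT474m1 1.10 where it was 0.66. IGF1R in SKBR-3 reached 1.41 where the sum was 1.11. IRS2 in SKBR-3 exceeded its sum of 1.38 by 1.94. IRS1 in BT474m1 departed from its sum of 0.38 by -1.25, and IGF1R there from its sum of 1.38 by -0.51. The departures of IRS1 in SKBR-3, of IRS2 in BT474m1 and of IGF2R and GRB10 in both lines lay between -0.25 and 0.30.

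Genes of like pattern were ranked by Pearson's r of log2 values centred within each line, over 8 libraries and 9841 genes, for the 5 members that reached 100 in both lines. These r are descriptions, over few libraries that all the genes share. INSR was most like CLDN3 (0.99), CREBL2 (0.99) and ANKMY1 (0.99), and IGF1R most like PXK (0.99), FOXK1 (0.98) and C17orf39 (0.98). CLDN3, a tight junction claudin, read 896, 2088, 1157 and 3087 in SKBR-3 and 380, 718, 295 and 597 in BT474m1, highest where INSR was highest in SKBR-3. IGF2R was most like SPTAN1 (0.99), PYGO2 (0.99) and RTF1 (0.99), IRS1 most like C6orf211 (0.98), EGLN2 (0.97) and RAB11FIP5 (0.97), and GRB10 most like LMAN1 (0.998), NUCB1 (0.99) and ALPK1 (0.99). Among the members themselves, r was 0.82 for INSR and IGF1R, 0.82 for IGF1R and GRB10, 0.77 for IGF1R and IRS1, 0.77 for INSR and GRB10, 0.65 for IRS1 and GRB10 and 0.32 for INSR and IRS1. IGF2R had an r of 0.38 with INSR, -0.04 with IGF1R, -0.29 with GRB10 and -0.56 with IRS1.

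The rest of the pathway was read through 7 gene lists, of which counts and medians are given and no test. The lists were chosen with earlier results of these data known, so a share above that of all genes kept may be partly built in. With lapatinib in SKBR-3 the FOXO factors and targets had the highest median of the 7 lists. Of 18 genes kept, 10 rose at least 2-fold in SKBR-3, against 11.1% of all genes kept, and 0 fell, against 9.44%, with a median of 1.17. Among the 10 was KLF15, at 15.3 against 1.43, which was kept only through libraries where it stood high. In BT474m1 5 rose, against 14.0%, and 1 fell, against 8.06%, with a median of 0.60. PIK3IP1, an inhibitor of PI3K, went from 338 to 2007 with lapatinib in SKBR-3, and its BT474m1 values were 417 and 2533, while SOD2, a mitochondrial superoxide dismutase, was at -0.16 and -0.08. FOXO3 rose by 1.5 and 1.15, though a near-identical copy can share its reads, and FOXO1 by 1.64 in BT474m1. With both drugs 12 rose in SKBR-3, against 10.8%, and 0 fell, against 20.8%, and in BT474m1 9 rose, against 14.2%, and 1 fell, against 15.3%, with medians of 1.73 and 0.98. With JQ1 alone 4 rose in SKBR-3, against 3.75%, and 1 fell, against 11.8%, and in BT474m1 2 rose, against 4.81%, and 1 fell, against 11.8%. Of these, the SKBR-3 rise of KLF15 had an interval that included no change. The JQ1 change of CITED2 was 1.03 and 0.82, and that of CDKN1B, a cyclin-dependent kinase inhibitor, -0.06 and -0.32.

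The IGF binding proteins, which hold IGFs in the medium, were listed with the proteases that cut them and the stanniocalcins, which inhibit such proteases. Of 9 genes kept, 0 rose with lapatinib in SKBR-3, against 11.1%, and 3 fell, against 9.44%. These were IGFBP4 (6.44 to 0), STC1 (16.5 to 0.766) and STC2 (2.15 to 0), all on few reads, and the interval of STC2 included no change. In BT474m1 5 rose, against 14.0%, and 1, STC1, fell, against 8.06%. The list had medians of -0.54 and 1.03. With no filter on low values the SKBR-3 median was -0.07, and with a pseudocount of 10 that of BT474m1 was 0.64. IGFBP4 went from 1880.2 to 9404 in BT474m1 with lapatinib and read 686 under JQ1 and 512 under the combination, and IGFBP5 went from 38861 to 136501. In SKBR-3 IGFBP5 was at 17021 with DMSO and 28073 with lapatinib, a change of 0.72 [0.70, 0.75]. JQ1 took IGFBP5 down in SKBR-3 from 17021 to 577 and in BT474m1 from 38861 to 1438, changes of -4.88 and -4.76. With JQ1, 4 genes of this list were called lower in SKBR-3 (IGFBP3, IGFBP4, IGFBP5 and IGFBP7), against 11.8%, of which IGFBP4 was at -1.06 [-3.47, 0.52]. The 1 called higher, against 3.75%, was PAPPA2, at 1.29 against 0, which passed the filter only through BT474m1, and its interval included no change. In BT474m1 0 rose, against 4.81%, and 2 fell, against 11.8%. With both drugs 0 were called higher in SKBR-3, against 10.8%, and 6 lower, against 20.8%, of which IGFBP4 had an interval that included no change. In BT474m1 1 was higher (PAPPA2, at 18.7 against 1.41), against 14.2%, and 4 were lower, against 15.3%. PAPPA2 passed the filter only through that library, so that this rise was part of passing. IGFBP2 was at 0.02 and 0.66 with JQ1, and IDE, which degrades insulin, at -0.13 and -0.38 with lapatinib.

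Of 17 PI3K, AKT and mTOR genes, 0 rose with lapatinib in SKBR-3, against 11.1%, and 0 fell, against 9.44%. In BT474m1 2 rose and 1 fell, shares near the 14.0% and 8.06% of all genes kept, and the medians were 0.00 and 0.10. TSC1, which restrains mTOR, was at 0.71 and 1.46 with lapatinib, RPS6KB2, an S6 kinase, at -0.85 and -1.16, PIK3R3 at 0.54 and 0.60 with JQ1, and AKT2 at -0.48 and -0.44 with JQ1. With JQ1, 0 rose and 0 fell in SKBR-3, against 3.75% and 11.8%, and 0 rose and 1 fell in BT474m1, against 4.81% and 11.8%. Of the 19 docking proteins and adaptors, 3 rose and 1 fell with lapatinib in SKBR-3, against 11.1% and 9.44%, while 1 rose and 1 fell in BT474m1, against 14.0% and 8.06%, with medians of 0.04 and 0.13. With JQ1 0 rose in either line, against 3.75% and 4.81%, and 0 fell in SKBR-3 and 3 in BT474m1, against 11.8% in each. GAB2, an IRS-like docking protein, rose from 62.3 to 276 in SKBR-3 and stood at 134 and 243 in BT474m1, whereas CRKL was at -0.08 and -0.02 with lapatinib and CRK at 0.48 and 0.34 with JQ1. GRB7, of the same family as GRB10 and GRB14, rose by 1.77 in SKBR-3 and was at 0.67 in BT474m1.

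Of 16 negative regulators, 2 rose and 1 fell with lapatinib in SKBR-3, against 11.1% and 9.44%, and 1 rose and 0 fell in BT474m1, against 14.0% and 8.06%, with medians of 0.10 and 0.02. With JQ1 2 rose in SKBR-3, against 3.75%, and 1 in BT474m1, against 4.81%, and 0 fell in either, against 11.8% in each. SOCS2, a suppressor of cytokine and IGF1R signalling, rose from 124 to 455 and from 373 to 1272 with lapatinib and stood at 70.2 and 216 with JQ1. CBLB, a ubiquitin ligase, rose by 1.01 with JQ1 in SKBR-3 and was at 0.50 in BT474m1, and PTPN1, the phosphatase of INSR, was at -0.17 and -0.40 with lapatinib. Of 14 genes of glucose uptake and metabolism, 2 rose and 1 fell with lapatinib in SKBR-3, whereas 1 rose and 2 fell in BT474m1, against the same shares. Of the BT474m1 falls, that of SLC2A3 had an interval that included no change. The medians were 0.04 and -0.55. With a pseudocount of 10 the latter was -0.29. With JQ1 2 rose and 2 fell in SKBR-3, against 3.75% and 11.8%. In BT474m1 1 rose, against 4.81%, and 1 was called lower, against 11.8%, which was SLC2A3, at 0.483 against 2.83 with an interval that included no change. The glucose transporter SLC2A12 rose by 1.83 and 1.80 with lapatinib, ACACA was at -0.48 and -0.82, SREBF1, an insulin-responsive lipid regulator, rose by 1.92 and 1.47 with JQ1, and TBC1D4 was at -0.62 and -0.65. Of 10 further genes of the family or named after IGF2, 4 were kept (IRS4, IGFALS, IGF2BP1 and IGF2BP3), and none of these is a receptor or ligand. With lapatinib 1 was called higher in SKBR-3 (IGFALS), against 11.1%, and 2 in BT474m1 (IRS4 and IGFALS), against 14.0%, and 0 lower in either. The medians were 0.00 and 1.42, the latter 0.00 with no filter. With JQ1 0 were called in SKBR-3, against 3.75% higher and 11.8% lower. In BT474m1 0 were higher, against 4.81%, and 2 were lower (IRS4 and IGF2BP1), against 11.8%, where the interval of IRS4 included no change. IRS4, a further docking protein, had 1.89 with DMSO and 19.3 with lapatinib in BT474m1 and 0 in SKBR-3, and IGFALS, which binds IGFs in serum complexes, had 2.36 and 29.5 in BT474m1. Both passed the filter only through BT474m1 libraries where they stood high, so that a difference was part of passing. IGFALS in SKBR-3 was at 1.01 [-0.81, 3.90], which was not detectable at this depth.

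**Figure D4:**
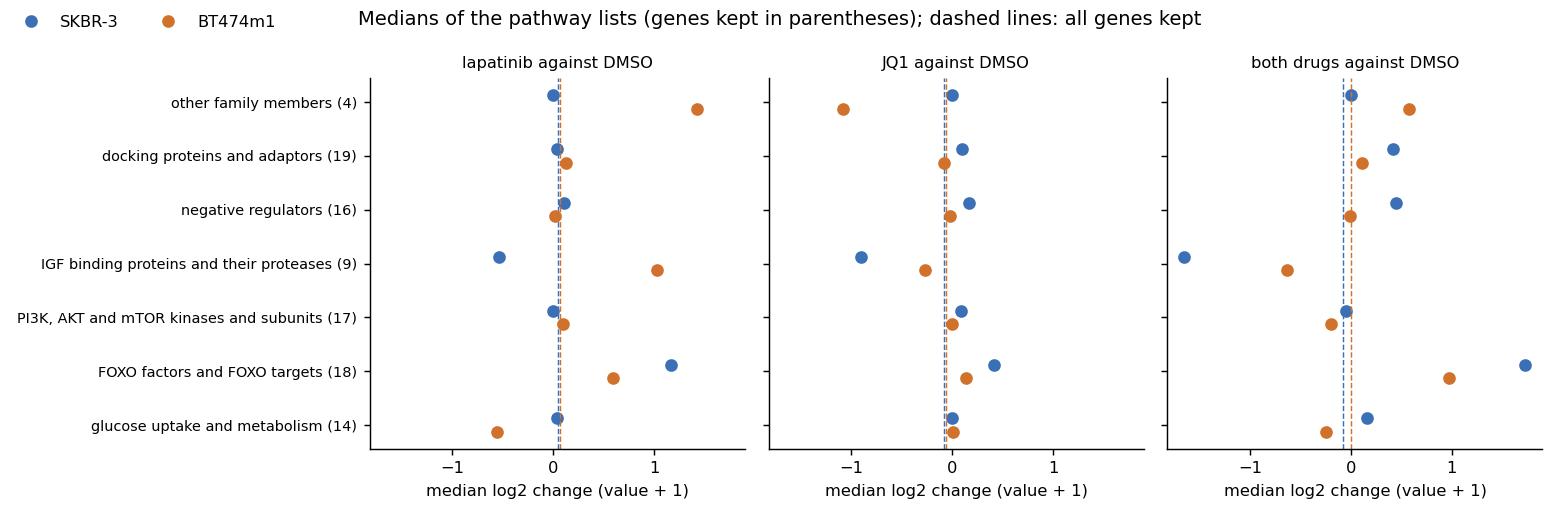
Median log2 change (x axis, value + 1) of the genes kept in each of 7 pathway lists, for 3 treatments against DMSO and 2 lines (colour); dashed lines give the median of all genes kept. The FOXO list lies farthest to the right with both drugs, at 1.73 and 0.98, and the binding proteins lie at -0.54 in SKBR-3 and 1.03 in BT474m1 with lapatinib.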

How the data were processed

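Poly(A) RNA was measured by RNAseq in 8 libraries, 1 per group, grouped from the labels. The authors deposited 1 signal value for each gene: RSEM estimates that the authors scaled to an upper quartile of 1000. The submitters' processing notes name hg19, RSEM, Picard 1.88, SAMtools 1.2, R 3.2.2 and DESeq2 1.12.3, whereas the study's methods name other tools and a newer build, so that the build of the tables is uncertain and positions locate genes, not reads. The labels name both a stranded and an unstranded library kit. The general methods give a shorter treatment than the labels, but the study's legend for the SKBR-3 reads gives the time of the labels, which were followed.

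The value of 1 read was recovered as the common step of each library (83.9% to 85.2% of values above 0 were whole within 0.02 of a read), and depth is the sum of values over it. The tools were Python 3.11.15, scipy 1.17.1, numpy 2.4.6, pandas 2.3.3 and, for figures, matplotlib 3.10.9. A pseudocount of 1, a value of at least 10 in at least 1 library and a 2-fold call were applied, and the method was tested on simulated data. The members, the 7 lists and the rules were chosen with earlier results of these data known. From each list the rule names the genes that rose and fell most alike in both lines with lapatinib and with JQ1, among those with values of 100 or more. GRB7, FOXO1, FOXO3, IGFBP4, IGFBP3, IGFBP7, PAPPA2, STC1, STC2, KLF15, SLC2A3, IRS4, IGFALS and IGF2BP1 lie outside that rule and were chosen after their values were seen. Promoters and positions are RefSeq on GRCh38.p14. Proteins were not analysed here. Alternatives were a filter at 100 or none, equal library totals or the median of ratios in place of the upper quartile, a pseudocount of 10, and a call that also needs an interval excluding no change.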

Additional observations from a re-analysis of the deposited data

Results flagged for a closer look

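Of 45 changes of the 9 genes set side by side in the lines, 5 lay past their counting intervals in opposite directions. The difference between the lines was not tested, since each group held 1 library. With JQ1 against DMSO, INSR was at 0.82 in SKBR-3 and -0.53 in BT474m1, and IGF1R at 0.18 and -0.88. Once libraries were scaled to equal totals, the SKBR-3 value of IGF1R was 0.03. With both drugs against lapatinib, SKBR-3 gave 0.48 and BT474m1 -1.39 for IGF1R. For both drugs against DMSO, IGF2 was at 2.23 and -1.47, on 20 against 3 reads and 3 against 14 reads. IGF2 was kept only through the SKBR-3 library with both drugs, so that its rise there was part of passing the filter. With both drugs against JQ1, IGF2R was at 0.18 and -0.095, a small difference that deep counts separate from 0.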

How the results depend on the processing

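No member's called change reversed under the alternatives run. The counts of members called were unchanged or within 1.5 times with no filter and with both other scalings, in 22 of 22 counts each. They moved where genes of a few reads (IGF1, IGF2 and GRB14) carried them. A pseudocount of 10 and a filter at 100 each gave 0 members lower with lapatinib in either line, with both drugs against DMSO in either line, with both drugs against lapatinib in SKBR-3 and between the lines. Both also gave 0 higher and 0 lower with JQ1 in SKBR-3, 0 higher with JQ1 in BT474m1, 0 higher with both drugs against lapatinib in BT474m1, and 1 higher in that comparison in SKBR-3, which was IRS2. A pseudocount of 10 left 3 higher with both drugs against DMSO in SKBR-3, without IGF2 and IGF2R. Counting only changes whose interval excludes no change gave 1 lower with lapatinib in BT474m1, 1 lower between the lines, 0 higher and 0 lower with JQ1 in SKBR-3, 0 higher with JQ1 in BT474m1 and 0 lower with both drugs against DMSO in SKBR-3.

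Of 99 member changes, 6 moved past their interval with a pseudocount of 10, 8 with the median of ratios and 4 with equal totals. Of 77 list medians, 5 moved with no filter, 7 with a pseudocount of 10, 16 with the median of ratios and 4 with equal totals, and 16 of 66 moved with a filter at 100. The median of ratios shifted both drugs against lapatinib in SKBR-3 by 0.16, which took INSR from 0.99 to 1.15 there. Equal totals shifted JQ1 in SKBR-3 by -0.15, which took IGF2R from 0.82 to 0.67. No paired analysis was possible because each group held 1 library and the labels carry no replicate numbers. IGF1, IGF2 and GRB14, at 21 reads or fewer, allow no firm statement.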
